A study of Mus musculus with 6 samples.

Results

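The 10 genes described here were cadherins and catenins, namely Cdh1, Cdh2, Cdh3, Cdh5, Cdh6, Cdh11, Cdh13, Ctnnb1, Ctnnd1 and Jup. They were chosen by gene name among the 36163 genes named on a 1-color Agilent mouse expression array, on which 12 probes carried these names. RNA came from N18-Fms cells on 6 arrays, 2 for each of 3 groups, which the labels call Control, 24H CSF1 and 48H CSF1. N18 is a luciferase-carrying subclone of C2H, a mouse prostate tumor line from a TRAMP mouse, in which the SV40 T antigen is driven in prostate epithelium. The Fms population, also written N18-CFMS, was derived from this 1 clone by retroviral transduction of murine c-fms, the gene of the CSF-1 receptor (CSF-1R), and sorted by flow cytometry. Cells of all 3 groups therefore carried the transduced receptor, grew with serum and dihydrotestosterone, and came from a line whose cells also secrete CSF-1. The Control cells were left without added CSF-1 (the labels call them both vehicle and untreated), and the others received recombinant mouse CSF-1 at 100 ng/mL for 24 h or 48 h. The comparison asked which transcripts differed once CSF-1 was added.

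Cadherins are calcium-dependent adhesion proteins of the cell surface. Their outer domains bind cadherins on the neighboring cell, and the cytoplasmic tail of the classical members binds p120-catenin near the membrane and beta-catenin or plakoglobin further along, which connect the junction to actin through alpha-catenin. Epithelial cells are known for E- and P-cadherin, mesenchymal cells for N-cadherin and cadherin-11, and endothelium for VE-cadherin, and a switch between these types is widely studied in carcinoma. Beta-catenin also acts in the nucleus with TCF/LEF factors.

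The array read each transcript through 60-base probes, and the probe letters are shown for the members that passed a threshold in any test. Positions are those of the array files, on mouse build mm9, and sequences are the files' own, written 5′ to 3′ in lower case. For Cdh5 (chr8:106668159-106668218, plus strand), Cdh3 (chr8:109079933-109079992, plus strand) and the brighter probe of Cdh11 (chr8:105157473-105157532, minus strand) the first 30 bases are given, and likewise for the dimmer probe of Cdh11, of which the file places 33 bases at chr8:105156895-105156927. The Jup probe (chr11:100238038-100238097, minus strand) is given whole.
Cdh5: acttattataagactctagttctcacagac
Cdh3: tattttccctgttatgtgctgtagatggag
Cdh11, brighter probe: tattttagtatacatacaaatatcagtatt
Cdh11, dimmer probe: atagaactgtttgaaatcacaacagactga
Jup: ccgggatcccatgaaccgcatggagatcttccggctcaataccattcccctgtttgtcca
Across the whole 60 bases, the Cdh5, Cdh3 and dimmer Cdh11 probes had a stop codon in each of the 3 reading frames, the brighter Cdh11 probe had 1 open frame and the Jup probe had 2. Their G and C content was 35% for Cdh5, 36.7% for Cdh3, 28.3% and 38.3% for Cdh11 and 55% for Jup.

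Each array held 59305 spots that were not controls. Between 58.7% and 72% of them were well above background and 0 were saturated. The array 24H CSF1 replicate 1 lay on another slide than the other 5 and had the highest share, and 24 h values without it are given for Cdh5, Cdh3, Cdh11, Jup and several related genes. The targeted receptor, Csf1r, had signals between 16200 and 24100 on all 6 arrays. Among epithelial markers, 4 of 8 were well above background on all 6 arrays, including Cldn7, Krt8 and Krt5, whereas Epcam was so on 1 array and Ocln on 0. Among mesenchymal and fibroblast markers 9 of 10 were, including Vim, Col1a2 and Col1a1. Among endothelial markers 5 of 10 were, including Kdr, Egfl7 and Pecam1, while Tie1, Cldn5, Emcn and Robo4 were at background on every array. Among macrophage markers 5 of 9 were, including Itgam, Cd14 and Mrc1, and Lyz2 was at background on every array. Cd14 was short of 2-fold, with log2 changes of 0.865 and 0.69 (limma adjusted p = 0.0102 and 0.0191). At an unadjusted p under 0.05 and at least 2-fold, 1 of the 6 macrophage markers tested was higher at both times. None was lower at either time by this rule. Over all genes, 3.41% were higher at both times and 1.82% lower at each. That gene was Mrc1, the mannose receptor, with signals of 82.3 and 85.6 in Control, 1510 and 1770 after 24 h and 912 and 1060 after 48 h, and log2 changes of 4.27 and 3.56 (adjusted p = 0.000845 and 0.000928). The summed macrophage signal, most of it from Itgam, was between 24488 and 24564 in Control, between 19767 and 23094 after 24 h and between 15924 and 19664 after 48 h. The part of these markers in the values of Cdh5, Cdh3 and the other members was not tested. In bulk RNA of this kind, fewer cells that express a gene and less RNA per cell cannot be told apart.

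A gene was tested where both arrays of some group measured it well above background, which 9 of the 10 genes met and Cdh1 did not. A gene was called at an unadjusted p under 0.05 with a change of at least 2-fold, and separately at a Benjamini-Hochberg adjusted p under 0.05 over the 24643 genes tested by limma. After 24 h of CSF-1, Cdh5 rose and Cdh3 fell. That is 1 of 9 higher and 1 of 9 lower, beside 5.86% and 1.82% of all genes, and by adjusted p 3 of 9 passed (Cdh5, Cdh3 and Jup) beside 14% of all genes. After 48 h, Cdh5 and Cdh11 rose and Cdh3 fell, beside 4.66% higher and 1.82% lower among all genes, and by adjusted p 2 of 9 passed (Cdh5 and Cdh3) beside 14%. The median log2 fold change of the 9 genes was 0.38 at 24 h and 0.38 at 48 h, beside medians of 0.04 and -0.04 over all genes. Both comparisons share the Control arrays, so the times are not independent of each other. With counts this small, the shares describe these 9 genes and are not tested against the background.

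**Figure D1:**
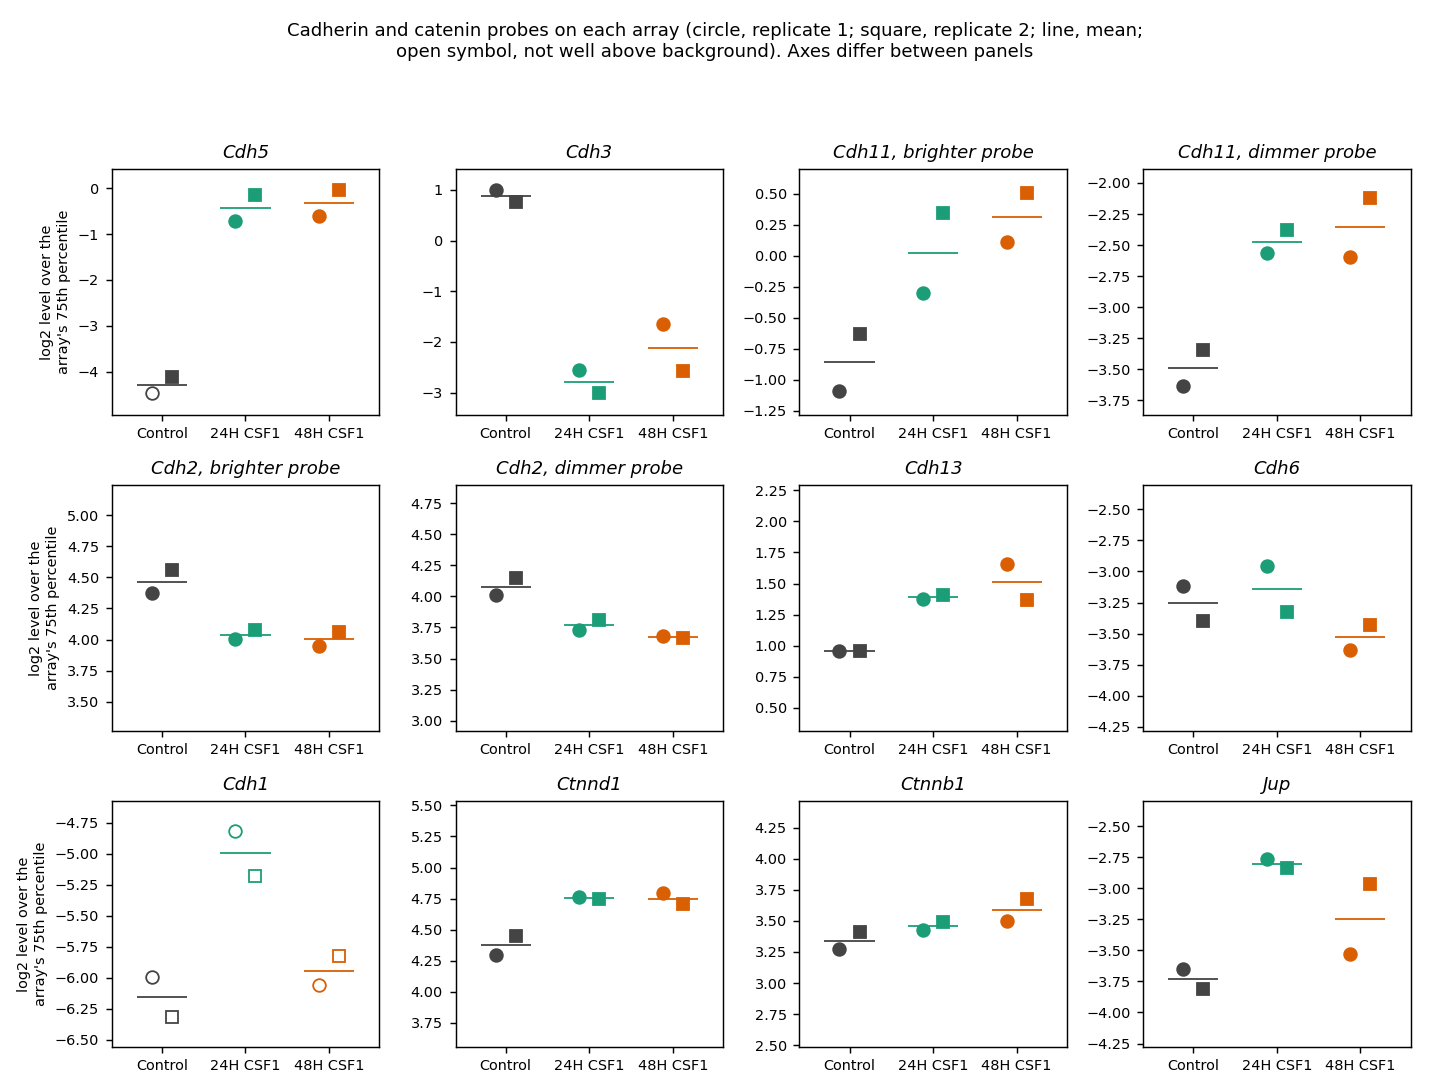
Log2 level of each of the 12 probes (y axis, log2 signal relative to that array's 75th percentile, with its own scale in each panel) on the 6 arrays by group (x axis). Circles and squares are the replicate arrays, lines are means, and open symbols were not well above background. The Cdh5 and Cdh3 panels show the stimulated group means about 3 to 4 log2 units away from the unstimulated mean, up and down respectively. The 48 h arrays of Cdh3 lie apart, at -1.64 and -2.58. Cdh1 has open symbols on all 6 arrays.

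Cdh5 encodes VE-cadherin, the adhesion protein of endothelial junctions. Its background-subtracted signal was 24.8 and 35.3 on the unstimulated arrays, 350 and 541 after 24 h and 363 and 585 after 48 h. Every stimulated array lay above both unstimulated ones, and the 24 h and 48 h arrays overlapped. The change was 14.6-fold at 24 h (log2 3.87, SE 0.28, limma adjusted p = 0.00308) and 15.7-fold at 48 h (log2 3.97, SE 0.28, adjusted p = 0.00234), in 2 of 2 arrays at each time. In Control the probe was well above background on 1 of 2 arrays. On the other, its signal of 24.8 compares with 20.4, the lowest signal counted as well above background there. The fold depends on how the background is treated and on any constant added to the signal. The normexp background correction used here adds an offset of 50 to each signal, which by itself lowers the fold of a dim probe. With it the log2 change was 2.04 at 24 h and 2.16 at 48 h under the setting that gave the lowest values. The adjusted p was still under 0.05. The share of the offset in this drop was not tested. Without 24H CSF1 replicate 1, the log2 change at 24 h was 4.15.

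Of the 10 endothelial markers listed beside Cdh5, 6 were measured well enough to be tested. Of these 6, 0 were called higher by fold at either time, beside 5.86% and 4.66% of all genes. By fold, Flt1 was called lower at 24 h (log2 -1.08, adjusted p = 0.0536), where 1.82% of all genes were. Egfl7 was lower at both times, beside 1.08% of all genes, with log2 changes of -1.07 (adjusted p = 0.0183) and -1.10 (adjusted p = 0.018). The summed signal of the list was between 12739 and 15433 on the unstimulated arrays, between 12462 and 14175 after 24 h and between 11520 and 12223 after 48 h, and most of it was that of Kdr, between 10500 and 13700, so the sum says little of the other markers. Kdr, a VEGF receptor, had log2 changes of -0.03 and -0.19, and Pecam1, an adhesion molecule of endothelium and leukocytes, 0.36 and 0.18, with adjusted p from 0.216 to 0.937. Vwf, the von Willebrand factor gene, had log2 changes of 0.93 and 0.84 (adjusted p = 0.042 and 0.054). At 24 h it was past the adjusted threshold and short of 2-fold. The part of endothelial markers in the Cdh5 values was not tested.

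Cdh3 encodes P-cadherin, a classical cadherin of basal epithelium, prostate included. It moved the other way. Its signal was 1100 and 1040 on the unstimulated arrays, 97.5 and 73.9 after 24 h and 178 and 101 after 48 h. All 4 stimulated arrays lay below both unstimulated ones and remained well above background. The decrease was 12.7-fold at 24 h (log2 -3.67, SE 0.34, adjusted p = 0.0054) and 7.95-fold at 48 h (log2 -2.99, SE 0.34, adjusted p = 0.00833). The spread between replicates was widest at 48 h, with an SD of 0.67 on the log2 scale against 0.16 in Control. Without Control replicate 1 or without Control replicate 2 the adjusted p at 48 h was 0.0591 and 0.0512, with log2 changes of -2.88 and -3.10. At 24 h, the log2 change without 24H CSF1 replicate 1 was -3.90 (adjusted p = 0.0248), and the smallest decrease under any processing was -2.85.

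Cdh1, the gene of E-cadherin, the main adhesion protein of epithelia, was at background. Its probe, spotted 10 times on each array (chr8:109193812-109193871, mm9), had signals of 8.66 and 7.68 in Control, 20.3 and 16.5 after 24 h and 8.29 and 10.6 after 48 h, and was well above background on 0 of 6 arrays. No fold is given, since both sides of each comparison were below background. When dim probes were kept in the fit, the adjusted p at 24 h was 0.0656. Of the epithelial markers, Krt8, a keratin of simple epithelium, was higher at 48 h (log2 1.98, adjusted p = 0.0106) and had a log2 change of 0.74 at 24 h (adjusted p = 0.112). Krt18, its partner keratin, was called higher at 24 h (log2 1.26, adjusted p = 0.0522), with a log2 change of 0.89 at 48 h (adjusted p = 0.118), and was well above background on 3 of 6 arrays and 0 of the Control arrays. Krt5, a basal keratin, had log2 changes of 0.27 and -0.25 (adjusted p = 0.262 and 0.288). The summed signal of the 8 epithelial markers was between 657 and 743 in Control, between 802 and 804 after 24 h and between 884 and 1062 after 48 h. Cldn7 was the largest part in Control, with signals between 360 and 393 on all 6 arrays. Krt8 had signals of 66.8 and 118 in Control, 152 and 146 after 24 h and 300 and 404 after 48 h. The sum therefore says little of the other markers. The part of epithelial markers in the Cdh1 and Cdh3 values was not tested.

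Cdh11 encodes cadherin-11, a type II cadherin of mesenchymal and osteoblast-lineage cells, and was read by 2 probes that share no placed bases. On the brighter probe, the signal was 259 and 395 in Control, 466 and 758 after 24 h and 597 and 856 after 48 h. On the dimmer probe it was 44.3 and 60.3, then 96.6 and 115, then 91.3 and 139. On either probe each stimulated array lay above both unstimulated arrays, and the 24 h and 48 h arrays overlapped. The brighter probe stood for the gene. Its change was 1.84-fold at 24 h (log2 0.88, SE 0.29, adjusted p = 0.103) and 2.25-fold at 48 h (log2 1.17, SE 0.29, unadjusted p = 0.0081, adjusted p = 0.0539). The dimmer probe, in a fit of every probe, gave 2.02-fold (log2 1.02, SE 0.21, adjusted p = 0.0384) and 2.19-fold (log2 1.13, SE 0.21, adjusted p = 0.0311). The adjusted p of the gene was under 0.05 in 3 of 19 other settings at 24 h and in 6 of 19 at 48 h. Among them were normexp with the 75th percentile (0.0464 and 0.0121) and an intensity trend in the prior (0.0386 and 0.0112). At 48 h they include the mean of the gene's 2 probes (0.04). Its 48 h call by fold was lost under both normexp settings (log2 0.99 and 0.98), with the methods' t-test, without Control replicate 1 (log2 0.94) and without 48H CSF1 replicate 2 (log2 0.97), and the 24 h value passed 2-fold without Control replicate 2 (log2 1.11) and without 24H CSF1 replicate 1 (log2 1.20).

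Cdh2 encodes N-cadherin, the classical cadherin of neural and mesenchymal cells. The brighter of its 2 probes (chromosome 18, mm9) had signals of 11400 and 14400 in Control, 9180 and 10000 after 24 h and 8540 and 10100 after 48 h. Both unstimulated arrays were above all 4 stimulated ones. The log2 change was -0.43 at 24 h (95% interval -0.73 to -0.12, adjusted p = 0.0772) and -0.46 at 48 h (95% interval -0.77 to -0.16, adjusted p = 0.0645), under 2-fold and past neither threshold. The other probe gave -0.31 and -0.40. Under median centring the Cdh2 changes were -0.711 and -0.56. The adjusted p of the gene was under 0.05 in 3 of 19 other settings at 24 h and in 4 of 19 at 48 h. Mesenchymal markers moved in both directions beside Cdh11 and Cdh2. Of 9 tested, 3 were called lower by fold at both times, Acta2, Col1a2 and Pdgfrb, and 1, Dcn, higher at both. Over all genes these shares were 1.08% and 3.41%. By adjusted p, Col1a1 (log2 -0.88 and -1.19, limma adjusted p = 0.0178 and 0.00859) was also lower at both times. So was Col3a1 (log2 -1.35 and -0.82, adjusted p = 0.00984 and 0.0344). Pdgfra was higher at 24 h (log2 1.33, adjusted p = 0.0176). Acta2, smooth muscle actin, had log2 changes of -2.26 and -3.48, and Dcn, the matrix proteoglycan decorin, 2.08 and 2.77. Vim, the intermediate filament vimentin, had changes of -0.16 and -0.27 (adjusted p = 0.423 and 0.198). The summed signal of the list, most of it from Vim, Col1a1 and Col1a2, was between 365353 and 418278 in Control, between 248174 and 263913 after 24 h and between 231823 and 250218 after 48 h. Their part in the cadherin values was not tested.

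Cdh13 encodes T-cadherin, which lacks a cytoplasmic tail and is held in the membrane by a lipid anchor. Its signal was 1070 and 1180 in Control, 1480 and 1590 after 24 h and 1740 and 1560 after 48 h (probe at chr8:121837969-121838028, mm9). The stimulated arrays were all higher, but the log2 changes of 0.44 (95% interval 0.10 to 0.77, adjusted p = 0.0912) and 0.55 (95% interval 0.22 to 0.89, adjusted p = 0.0518) missed both thresholds. Under median centring the Cdh13 changes were 0.153 and 0.455. Its adjusted p was under 0.05 in 2 of 19 other settings at 24 h and in 6 of 19 at 48 h. Cdh6 encodes K-cadherin, a type II cadherin of developing kidney (probe at chr15:12963981-12964040, mm9). Its signal was 63.6 and 58 in Control, 73.7 and 59.6 after 24 h and 44.6 and 56 after 48 h. Its log2 changes were 0.12 (95% interval -0.35 to 0.58, adjusted p = 0.73) and -0.28 (95% interval -0.74 to 0.19, adjusted p = 0.376), and the sign at 24 h turned under quantile normalization and median centring.

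The catenins changed less than Cdh5 and Cdh3. Ctnnd1 encodes p120-catenin, which binds the membrane-proximal part of the cadherin tail and keeps cadherins at the surface (probe at chr2:84440999-84441058, mm9). Its signal was 10800 and 13400 in Control, 15600 and 16000 after 24 h and 15300 and 15700 after 48 h. Every stimulated array was higher, with a log2 change of 0.38 at 24 h (95% interval 0.09 to 0.67, adjusted p = 0.0874) and 0.38 at 48 h (95% interval 0.09 to 0.66, adjusted p = 0.0911). Under median centring the Ctnnd1 changes were 0.097 and 0.275. Its adjusted p was under 0.05 in 2 of 19 other settings at each time. Ctnnb1 encodes beta-catenin (probe at chr9:120869274-120869333, mm9). Its signal was 5320 and 6500 in Control, 6140 and 6710 after 24 h and 6240 and 7720 after 48 h. The log2 change was 0.12 (95% interval -0.20 to 0.43, adjusted p = 0.586) and 0.25 (95% interval -0.07 to 0.56, adjusted p = 0.251), so a change of 2-fold lay outside the interval at either time. The sign at 24 h turned under median centring.

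Jup encodes plakoglobin, which takes the place of beta-catenin in some junctions and is shared with desmosomes. Its signal was 43.8 and 43.6 in Control, 84.1 and 83.5 after 24 h and 47.9 and 77.3 after 48 h. Both 24 h arrays lay above all others, and the 48 h arrays fell between, far apart from each other. The change at 24 h was 1.90-fold (log2 0.93, SE 0.21, adjusted p = 0.0427), past the adjusted threshold but short of 2-fold, and at 48 h 1.40-fold (log2 0.49, SE 0.21, adjusted p = 0.185). The adjusted p at 24 h was under 0.05 in 9 of 19 other settings. With a Control or 24 h array left out it ranged from 0.118 to 0.171, it was 0.159 without 24H CSF1 replicate 1, and under normexp with quantile normalization the log2 change was 0.29.

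**Figure D2:**
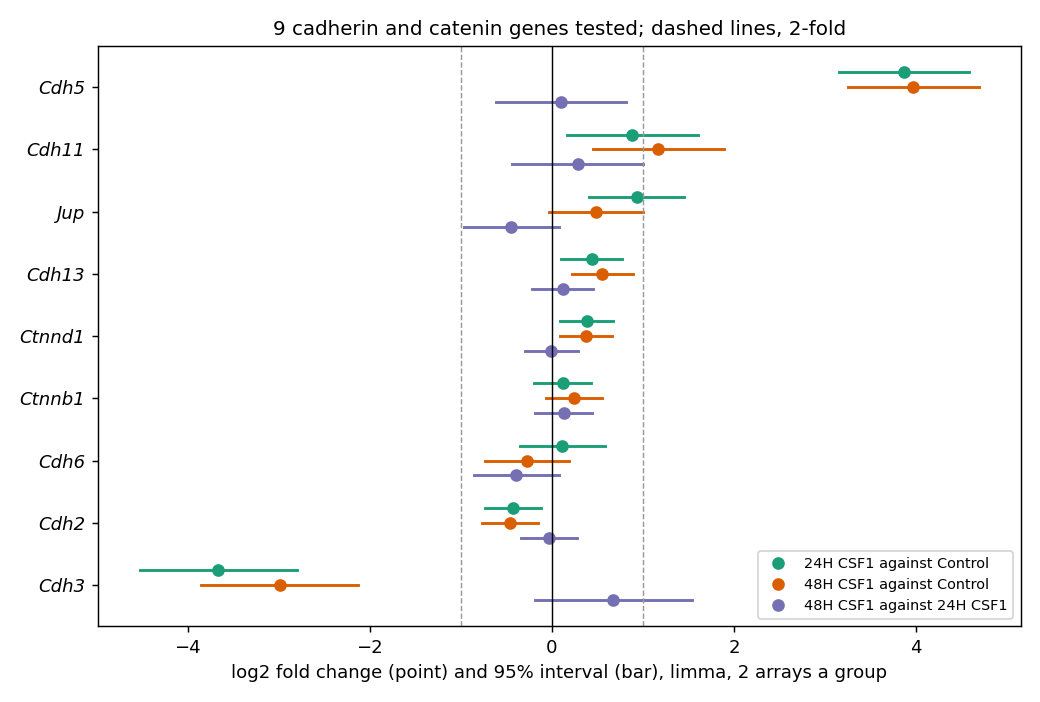
Log2 fold change (x axis, points) with its 95% interval (bars) for the 9 genes tested (y axis) in 3 comparisons, fitted by limma on 6 arrays. Dashed lines mark 2-fold. Cdh5 lies at 3.87 and 3.97 and Cdh3 at -3.67 and -2.99 against Control, while all other points lie between -0.46 and 1.17 and every 48 h against 24 h interval includes 0.

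No cadherin or catenin was called between 48 h and 24 h, where 0 of 9 passed beside 0.868% of all genes higher and 1.4% lower, and 0% by adjusted p (3355 of all genes had an unadjusted p under 0.05 in this limma comparison, and none of the 9 did). The median log2 difference of the 9 genes was 0.10, beside -0.08 over all genes. The largest difference was that of Cdh3, 0.67 (95% interval -0.19 to 1.54, unadjusted p = 0.102, adjusted p = 0.46), and without 48H CSF1 replicate 2 it was 1.15, past the unadjusted threshold. For Cdh5 the difference was 0.10 (95% interval -0.62 to 0.82) and for Jup -0.45 (95% interval -0.96 to 0.07, adjusted p = 0.423). The passing of Jup at 24 h alone, and of Cdh11 at 48 h alone (difference 0.29, 95% interval -0.434 to 1.003), is therefore not a shown difference between the times.

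**Figure D3:**
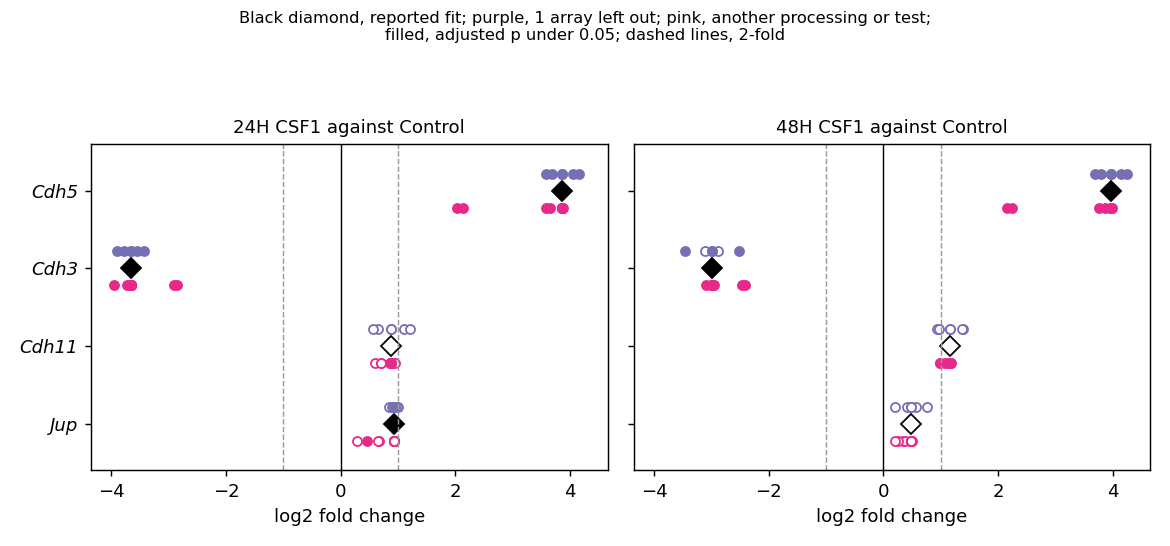
Log2 fold change (x axis) of Cdh5, Cdh3, Cdh11 and Jup (y axis) against Control at 24 h and 48 h under the reported fit (diamond), with 1 array left out (purple) and under other processing or tests (pink). Filled symbols have an adjusted p under 0.05. Cdh5 stays between 2.04 and 4.25 and Cdh3 between -3.95 and -2.42, and the symbols of Cdh11 and Jup change between filled and open.

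Around the 10 genes, cadherin relatives and junction partners were read from lists written out by function. Over all genes tested, the fold rule called 5.86% higher and 1.82% lower at 24 h, 4.66% and 1.82% at 48 h, and 3.41% higher and 1.08% lower at both times. The lists are small, and their counts, by the fold rule unless stated, are given beside these shares as a description. Between 48 h and 24 h no gene tested had an adjusted p under 0.05. By the fold rule 0.868% of all genes were higher at 48 h than at 24 h and 1.4% lower. From these lists Pkp2 and Ptprf were called, both higher. For the other genes, a call at 1 time alone is not a shown difference between the times. In a list of other cadherins with Cdh names, of more than 1 class, 9 of 15 were tested. Of these, 1 rose at both times and 0 fell, with median log2 changes of 0.25 and 0.05. That gene was Cdh17, LI-cadherin of intestine and liver. Its signal was 37.3 and 93.4 in Control, 278 and 272 after 24 h and 453 and 620 after 48 h, a change of 4.62-fold (log2 2.21, SE 0.39, adjusted p = 0.0237) and 9.02-fold (log2 3.17, SE 0.39, adjusted p = 0.00977). Every stimulated array was higher, and the 48 h arrays lay above the 24 h arrays. The size rested on the Control arrays, which lay far apart. Without Control replicate 1 or 2 the log2 change was 1.62 or 2.79 at 24 h and 2.59 or 3.76 at 48 h, and under normexp it was as low as 1.20 and 2.08. The adjusted p at 24 h was 0.101 and 0.0895 without 24H CSF1 replicate 1 or 2, and at 48 h 0.0557 without 48H CSF1 replicate 2.

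Of the desmosomal cadherins, plakophilins and desmoplakin, 7 of 15 were tested. At 24 h 2 rose and 2 fell, and at 48 h 0 rose and 2 fell, with median log2 changes of -0.03 and 0.04. The 2 that fell at both times were plakophilins, armadillo-repeat proteins of the desmosomal plaque. Pkp1 had signals of 416 and 529 in Control, 126 and 131 after 24 h and 95.9 and 98.8 after 48 h, with log2 changes of -1.88 (SE 0.12, adjusted p = 0.00239) and -2.26 (SE 0.12, adjusted p = 0.00138). Pkp2 had signals of 56.3 and 56.4 in Control, 6.15 and 7.64 after 24 h and 22.2 and 25.5 after 48 h. It was not well above background on either 24 h array. The Control mean was 2.01-fold above the lowest signal counted as well above background on each 24 h array. This is not a strict bound, since a probe above that lowest signal can be at background, as Cdh5 was on Control replicate 1. The limma adjusted p of 0.00134 belongs to the fitted log2 change of Pkp2, -3.05, which uses signals below background. At 48 h, where 1 of 2 arrays measured it, the log2 change was -1.24 (adjusted p = 0.00741, and 0.051 without Control replicate 1). With normexp the decrease was under 2-fold at both times, by log2 -0.78 and -0.91 at 24 h and -0.42 and -0.45 at 48 h, with adjusted p from 0.000681 to 0.0314. The genes that rose at 24 h, named after their values were seen, were the desmogleins Dsg2 (log2 1.26, adjusted p = 0.00958) and Dsg1c (log2 1.29, adjusted p = 0.0924).

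Of the other catenins and adherens junction partners, 18 of 23 on the array were tested, and at each time 1 rose and 1 fell, with medians of -0.04 and 0.06. Jub, a LIM protein that binds alpha-catenin, had signals of 2820 and 3190 in Control, 956 and 1240 after 24 h and 1170 on both arrays after 48 h, with log2 changes of -1.47 (adjusted p = 0.00596) and -1.35 (adjusted p = 0.00689). Pvr, a nectin-like adhesion protein, rose by log2 1.74 at 24 h (adjusted p = 0.0332) and 1.11 at 48 h (adjusted p = 0.0957). Its adjusted p at 24 h was 0.129, 0.119 and 0.0955 without Control replicate 1, Control replicate 2 or 24H CSF1 replicate 2. At 48 h its call was lost without Control replicate 1 (log2 1.002), without Control replicate 2 (log2 1.23) and without 48H CSF1 replicate 2 (log2 0.79). Alpha-catenin itself, Ctnna1, had log2 changes of -0.09 and -0.03 (adjusted p = 0.68 and 0.919), a gene also named after its values were seen.

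Of the protocadherins outside the clusters and the large cadherins, 21 of 30 were tested. At 24 h 1 rose and 2 fell, and at 48 h 1 rose and 1 fell, with medians of 0.05 and 0.06. Pcdh7 had signals of 360 and 650 in Control, 1930 and 2050 after 24 h and 953 and 1900 after 48 h, with log2 changes of 2.03 (adjusted p = 0.0238) and 1.48 (adjusted p = 0.0511). With the mean of its probes in place of the brightest the 24 h change was 1.31, and with any 1 Control or 24 h array left out the 24 h adjusted p was between 0.0584 and 0.0969. Pcdh18 had signals of 4270 and 4880 in Control, 1420 and 1820 after 24 h and 1730 and 1700 after 48 h, with log2 changes of -1.52 (adjusted p = 0.00543) and -1.41 (adjusted p = 0.00598). In both genes all stimulated arrays lay on the same side of the unstimulated ones. The further gene that fell at 24 h was Pcdh17 (log2 -1.43, adjusted p = 0.0641), named after its values were seen.

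**Figure D4:**
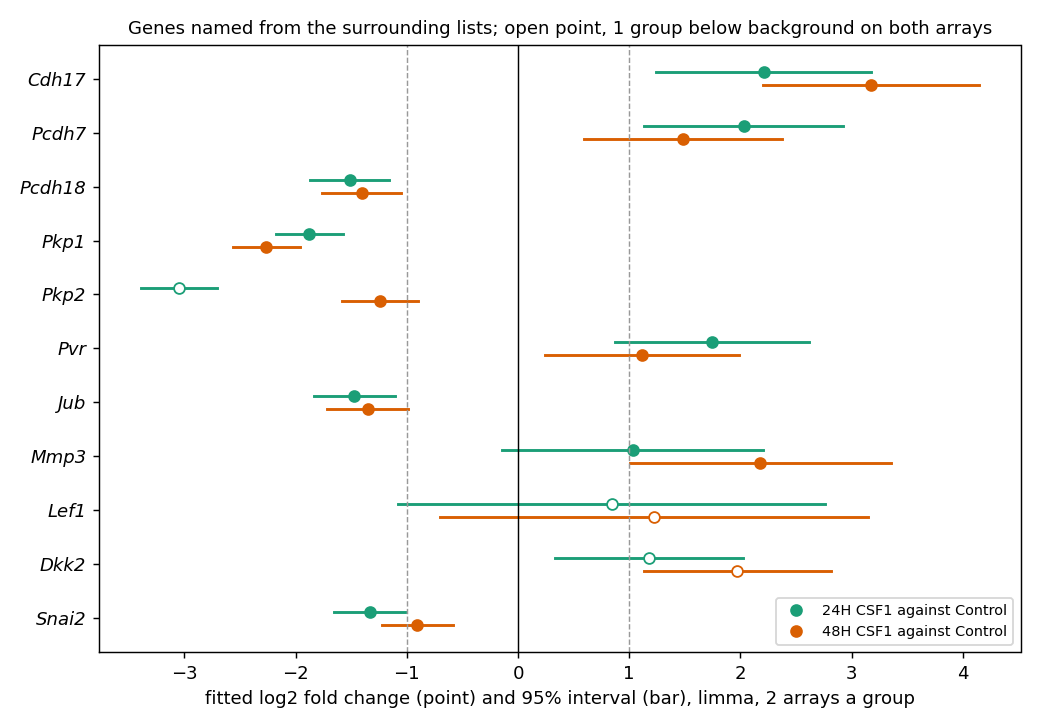
Fitted log2 fold change (x axis, points) with its 95% interval (bars) of the 11 genes named from the surrounding lists (y axis) at 24 h and 48 h against Control. Open points had 1 group below background on both arrays, so their fitted value is not a measured fold. Cdh17 reaches 3.17 at 48 h, Pkp1 lies at -1.88 and -2.26, and the Lef1 intervals include 0.

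Of the enzymes and adaptors of cadherin turnover and shedding, 18 of 22 on the array were tested. At 24 h 2 rose and 0 fell, and at 48 h 2 rose and 1 fell, none of them at both times, with medians of 0.15 and 0.23. Mmp3, stromelysin-1, which cleaves matrix and cadherin ectodomains, had signals of 273 and 794 in Control, 826 and 1110 after 24 h and 1740 and 2530 after 48 h. Its log2 change was 1.03 at 24 h (adjusted p = 0.208) and 2.18 at 48 h (adjusted p = 0.0395), and without Control replicate 2 the 24 h value was 1.73 and passed the unadjusted threshold. At 48 h the log2 change was 1.48 without Control replicate 1 (adjusted p = 0.0722) and 2.88 without Control replicate 2, and leaving out any of the other 4 arrays gave an adjusted p from 0.0692 to 0.154. The other 4 were receptor tyrosine phosphatases, named after their values were seen. Ptprj (log2 1.25, adjusted p = 0.00559) and Ptprm (log2 1.07, adjusted p = 0.0592) rose at 24 h, and at 48 h Ptprf rose (log2 2.05, adjusted p = 0.00582) and Ptprb, also called VE-PTP, fell (log2 -1.33, adjusted p = 0.0508).

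Few of the genes around beta-catenin passed the fold rule. Of its destruction complex and nuclear partners, 25 of 27 were tested, 0 rose, and 1 fell at 24 h and 0 at 48 h, with medians of -0.11 and -0.08. The gene that fell was the coactivator Bcl9l (log2 -1.18, adjusted p = 0.0176), named after its values were seen. Lef1, a DNA-binding partner, was named by the size of its fitted change. Its signal was 25.5 and 13.7 in Control, 56.1 and 20.2 after 24 h and 73.5 and 25.5 after 48 h, with overlapping groups, and its adjusted p was 0.517 and 0.345. Of the target genes of beta-catenin, 12 of 20 were tested, with 1 higher and 1 lower at 24 h and 1 higher at 48 h, and medians of 0.26 and 0.28. The gene higher at both times was Dkk2, a secreted regulator of Wnt receptors, with Control below background on both arrays. The means at 24 h and 48 h were 2.13-fold and 3.69-fold above the lowest Control signals counted as well above background. The limma adjusted p-values belong to the fitted log2 changes of Dkk2, 1.18 (adjusted p = 0.0775) and 1.97 (adjusted p = 0.0231). Its 24 h call was lost under quantile normalization, median centring and both normexp settings, and without Control replicate 1, Control replicate 2 or 24H CSF1 replicate 1 (log2 1.20, 1.15 and 0.94). At 48 h the fold call was lost under both normexp settings, with log2 changes of 0.69 and 0.64 (adjusted p = 0.0355 and 0.0215), and the adjusted p was 0.105 and 0.103 without Control replicate 1 or 2. Axin2, the target most used as a readout, had log2 changes of 0.84 and 0.26 (adjusted p = 0.135 and 0.63), and Apcdd1, the gene that fell at 24 h, had -1.20 (adjusted p = 0.0394). Both were named after their values were seen. By adjusted p, 2 of 25 partners passed at 24 h and 1 at 48 h, beside 14% of all genes. Axin1 was lower at both times, by log2 -0.54 and -0.53 (limma adjusted p = 0.0359 and 0.0383). Of the 12 targets, 3 passed at 24 h and 2 at 48 h. Nkd2 was higher at both times, by log2 0.66 and 0.85 (adjusted p = 0.0453 and 0.0244). Ccnd1 was lower at 24 h, by log2 -0.76 (adjusted p = 0.0292). Axin1, Nkd2 and Ccnd1 too were named after their values were seen.

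Of the factors known to regulate cadherin gene transcription, 15 of 24 were tested, 0 rose, and 1 fell at 24 h and 0 at 48 h by the fold rule, with medians of -0.12 and -0.05. Snai2, the repressor Slug, had signals of 3730 and 4020 in Control, 1640 and 1460 after 24 h and 2050 and 2070 after 48 h. All stimulated arrays were lower. The log2 change was -1.33 at 24 h (adjusted p = 0.00565) and -0.91 at 48 h (adjusted p = 0.0145), which is past the adjusted threshold and short of 2-fold. With any 1 Control or 48 h array left out the 48 h adjusted p was between 0.0579 and 0.0793. Snai1, Zeb1, Zeb2 and Twist1, repressors of epithelial cadherins named after their values were seen, had log2 changes of 0.03, 0.55, 0.30 and -0.30 at 24 h, with adjusted p from 0.17 to 0.924.

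The genes whose levels ran most like those of Cdh5 over the 6 arrays were B4galt5, a galactosyltransferase (r = 0.9999), the gene labelled 5430411K18Rik (r = 0.999) and the gene labelled BC006779 (r = 0.998). The arrays share their groups, and 861 of 24642 genes had r over 0.95, so the likeness describes a step between unstimulated and stimulated arrays that many genes had. The log2 changes of B4galt5 were 1.52 and 1.56, those of BC006779 were 2.85 and 2.78, and those of 5430411K18Rik were 0.98 and 0.99, each smaller than those of Cdh5.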

How the data were processed

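RNA of N18-Fms cells was hybridized to 6 SurePrint G3 mouse arrays, 2 each for Control, 24H CSF1 and 48H CSF1. Groups and times follow the sample labels; the written methods give shorter times. The labels give no time for the Control cells, so whether these match 24 h or 48 h in culture is not stated. Per the written methods the RNA came from 2 independent experiments. With 2 arrays a group, p-values measure the spread between these arrays only. An exact test of 2 against 2 cannot fall below p = 0.333.

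For each array the authors deposited scanner output (Feature Extraction 11.0.1.1), and its background-subtracted spot intensity was used. A further deposited file holds log2 values whose centring is not stated. Its differences between arrays followed those of the log2 signal within 0.05 for 99.78% of 44323 probes, in the same direction, with column medians from -0.0378 to 0.173 and a baseline per probe. It served as an alternative.

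Outlier-flagged spots were left out, spots of a probe averaged, and the log2 signal taken relative to each array's 75th percentile. By this, 303 probes and 135 genes were lost. The brightest probe stood for a gene. Genes that both arrays of some group measured well above background, 24643 of 36028, were tested in R 4.3.3 with limma 3.58.1 (lmFit, eBayes, 2-sided, all 6 arrays in one model, 3 residual and 2.39 prior degrees of freedom). Files were read with the package data.table (version 1.17.8), and the procedure was tested on simulated data. Replicate arrays had Pearson correlations of 0.9926 to 0.9936 across genes, which are not independent, and shared 0 identical values. Precision is limited by how few arrays there are.

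The 10 members, the 8 lists of related genes and the 4 marker lists were chosen with earlier results of these data known, and 1 marker is not reported here. Beside the members, the genes named were those of a list called at both times (at most 3), else the gene with the largest mean change, the 3 markers of highest signal in each marker list and the 3 genes most correlated with Cdh5. Further marker genes, and genes marked so in the text, were named after their values were seen. The alternatives were other normalizations and background corrections, filters, probe summaries, a prior with an intensity trend, only the arrays compared, the methods' t-test, the replicate number as a block, and each array left out. Both normexp settings added an offset of 50 to each signal, which lowers the folds of dim probes. Positions are mm9, from the array files; exon and UTR annotation was not used here.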

Additional observations from a re-analysis of the deposited data

How the results depend on the processing

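Against Control, Cdh5 and Cdh3 kept their direction in all alternatives in which they were tested, from 2.04 to 4.15 (24 h) and 2.16 to 4.25 (48 h) for Cdh5 and from -3.95 to -2.85 and -3.46 to -2.42 for Cdh3. With all 6 arrays required well above background Cdh5 was not tested, leaving 1 member called at 24 h instead of 2. Members with an adjusted p under 0.05, 3 at 24 h and 2 at 48 h, numbered 5 and 5 with normexp and the 75th percentile, 5 at 48 h with normexp and quantile, 4 at 48 h with all 6 arrays well above background, 7 and 6 with an intensity trend, and 0 and 0 with the methods' t-test. Leaving out 1 array gave 1 to 2 at 48 h, the lower value without either Control replicate. Between the times, 0 to 1 members were called, the 1 being Cdh3 without 48H CSF1 replicate 2. The slide enters only through 24H CSF1 replicate 1, so a slide block equals leaving that array out. The unadjusted calls of Cdh17 and Pvr at 24 h and of Cdh11, Dkk2, Mmp3, Pcdh7 and Pvr at 48 h were lost with the methods' t-test.

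The replicate number as a block gave 4 members with an adjusted p under 0.05 at 48 h. With it the adjusted p was 0.0598 for Jup at 24 h and 0.0206 and 0.0138 for Cdh11 at 24 h and 48 h, 0.0476 for Cdh2, 0.0323 for Pcdh7 and 0.0326 for Pvr at 48 h and 0.0474 for Dkk2 at 24 h, and Lef1 was called at 48 h (log2 1.22, adjusted p = 0.0289). The labels do not say that numbers pair the arrays, and deviations of same-numbered arrays correlated at 0.128, 0.0943 and 0.199.

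Signs turned for small values. Cdh6 at 24 h was -0.141 with quantile, -0.169 with median centring, -0.096 with normexp and quantile, and -0.069 to 0.299 with 1 array left out. Ctnnb1 at 24 h was -0.168 with median centring, and Lef1 -0.074 with normexp and quantile. Between the times, Cdh2 was 0.151 and Ctnnd1 0.178 with median centring, and Ctnnd1 was 0.007 with quantile, 0.01 with normexp and the 75th percentile, 0 with normexp and quantile and 0.003 with the authors' log2 values. With 1 array left out, the differences between the times ran from -0.036 to 0.605 for Cdh11, -0.025 to 0.261 for Cdh13, -0.089 to 0.022 for Cdh2, -0.183 to 0.382 for Cdh5 and -0.051 to 0.039 for Ctnnd1. The cause was not tested.

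Over all genes, median centring moved the 24 h median from 0.04 to -0.25 and the split from 1444 higher and 449 lower to 924 and 1018. At 24 h it was 955 and 596 with quantile, 585 and 289 with normexp, 2800 and 470 without a filter and 728 and 373 with all 6 arrays well above background. At 48 h, 1148 and 449 became 655 and 233 with normexp and 1023 and 645 with median centring. Between the times, 214 and 346 became 383 and 190 with median centring, 136 and 26 with normexp, 234 and 1118 without a filter and 105 and 146 with the methods' t-test. Genes with an adjusted p under 0.05, 3453 and 3439 at the 2 times, numbered 1321 and 869 without a filter, 5477 at 48 h with an intensity trend, 2115 at 48 h with only the arrays compared and 0 and 0 with the methods' t-test, and as few as 898 and 890 with 1 array left out.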
